A study of Mus musculus with 4 samples.

Results

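The voltage-gated sodium and calcium channel subunits were examined in single-nucleus RNA sequencing of mouse forebrain after stroke. They are the 40 of 46983 genes whose symbol begins with Scn and a digit or with Cacna, Cacnb or Cacng, with antisense and opposite-strand transcripts left out. They comprise 10 pore-forming sodium alpha subunits, 4 sodium beta subunits, 10 pore-forming calcium alpha1 subunits, 4 alpha2delta subunits, 4 calcium beta subunits and 8 gamma subunits. All groups were male C57Black/6 mice of 3 months, and the groups were sham control mice and mice killed on day 1, day 3 or day 7 of a permanent MCAO, a stroke model that closes the middle cerebral artery for good by coagulation and transection and leaves a small infarct in the parietal cortex. Each group was 1 library made from 3 pooled hemispheres, so no difference between libraries has a replicate check, no p-value was computed, and every interval is a 95% interval that covers counting error only. One label names intact cortex as the control tissue, but 16.8% of sham nuclei were striatal-projection-neuron-like, against 13.1%, 12.5% and 12.8% at the later days. The study's own breakdown of nuclei corresponds to the deposited libraries only if day 3 and day 7 trade places; the deposited labels were used throughout.

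Sodium channels carry the inward current of the action potential, and calcium channels turn depolarisation into calcium entry that drives transmitter release, gene expression and dendritic signalling. In both, a large alpha subunit forms the pore and the voltage sensor, while auxiliary subunits set trafficking, gating and anchoring: single-pass beta subunits for sodium channels, and extracellular alpha2delta and cytoplasmic beta subunits for calcium channels. Most neuronal members of the gamma family are better known as transmembrane AMPA receptor regulatory proteins (TARPs) than as parts of calcium channels. In ischaemic tissue these channels are of interest because sustained depolarisation opens them.

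The libraries held 23285489 to 42963698 UMIs (unique molecular identifiers, each counting 1 captured RNA molecule), of which 51.9% to 60.4% were in the 1026 to 3155 barcodes called as nuclei, and 7779 nuclei remained after doublets were removed. Pairs of libraries shared 0 to 3 barcodes. Nuclei at day 1 were deepest, with a median of 11029.5 UMIs against 5479 to 7034 in the others. Clusters were named from marker genes and are called by the marker class they resemble, and 15.6% of nuclei stayed unnamed. The unnamed nuclei entered no comparison with sham control. Among them was a cluster with heat-shock and mitochondrial genes among its top genes, with 15 nuclei in sham control and 28, 89 and 29 at day 1, day 3 and day 7. The 7 classes used here were glutamatergic-neuron-like (2410 nuclei), striatal-projection-neuron-like (1074), GABAergic-interneuron-like (444), astrocyte-like (490), oligodendrocyte-like (1167), oligodendrocyte-precursor-like (239) and microglia-like (422). Levels are the UMIs of a gene scaled to 1000000 UMIs of its class in a library (CPM), given in the order sham control, day 1, day 3 and day 7. RNA released from broken cells (free RNA) was estimated from markers of other classes at 4.71% to 9.06% of UMIs in the 3 neuron classes, 17.9% to 22.8% in oligodendrocyte-like, 32.7% to 42.1% in oligodendrocyte-precursor-like, 27.1% to 56.1% in astrocyte-like and 43.2% to 74.0% in microglia-like nuclei. In sums over nuclei of this kind, fewer cells with the RNA and less RNA per cell cannot be told apart.

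Of the 40 members, 35 reached 20 UMIs in the 7 classes and 5 did not. The 5 were Scn4a and Cacna1s, the pores of skeletal muscle, Scn10a and Scn11a, known from sensory neurons, and Cacng6, with 2 to 23 UMIs each in all nuclei. Of the 35, 29 were higher in the mean of the neuron classes than in the mean of the glia classes in all 4 libraries, and Cacna2d4, Cacng1, Cacng4, Cacng5 and Cacng7 were among the other 6. Together the members took 1.19% to 1.36% of UMIs in striatal-projection-neuron-like nuclei, 0.791% to 0.842% in glutamatergic-neuron-like, 0.709% to 0.737% in interneuron-like, 0.435% to 0.565% in oligodendrocyte-precursor-like, 0.382% to 0.535% in microglia-like, 0.225% to 0.317% in astrocyte-like and 0.160% to 0.190% in oligodendrocyte-like nuclei. For 21 of the 35 the same class was highest in all 4 libraries, and for 15 its interval lay above that of the next class in every library. The matching shares of all genes were not computed, so these counts, and the 29 above, describe the members alone. By mean level, 15 members were highest in striatal-projection-neuron-like nuclei, 9 in interneuron-like, 7 in glutamatergic-neuron-like, 3 in oligodendrocyte-precursor-like and 1 in oligodendrocyte-like nuclei. Statements on the highest class hold among the 7 classes, and the unnamed nuclei had a higher mean than all 7 for 8 of the 40 members, among them Cacna1b (272 CPM), Cacna1g (53.9 CPM), Scn2b (38.8 CPM) and Cacng5 (24.1 CPM). Members span up to 816.9 kb of genome, 20 of them at least 100 kb, so introns contribute to their nuclear counts, and CPM, by which some members were picked for description in each class, puts long genes first. Where levels of different genes are compared, they are given per kb of gene span. Whether counting took account of strand is not given in the sources used here, and reads of the 23 members that overlap another annotated gene may be mixed with that gene's, namely Cacna1a, Cacna1b, Cacna1c, Cacna1d, Cacna1h, Cacna1s, Cacna2d1, Cacna2d2, Cacna2d3, Cacna2d4, Cacnb1, Cacnb2, Cacnb4, Cacng2, Cacng3, Cacng4, Cacng7, Cacng8, Scn1a, Scn2b, Scn3a, Scn3b and Scn9a.

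**Figure D1:**
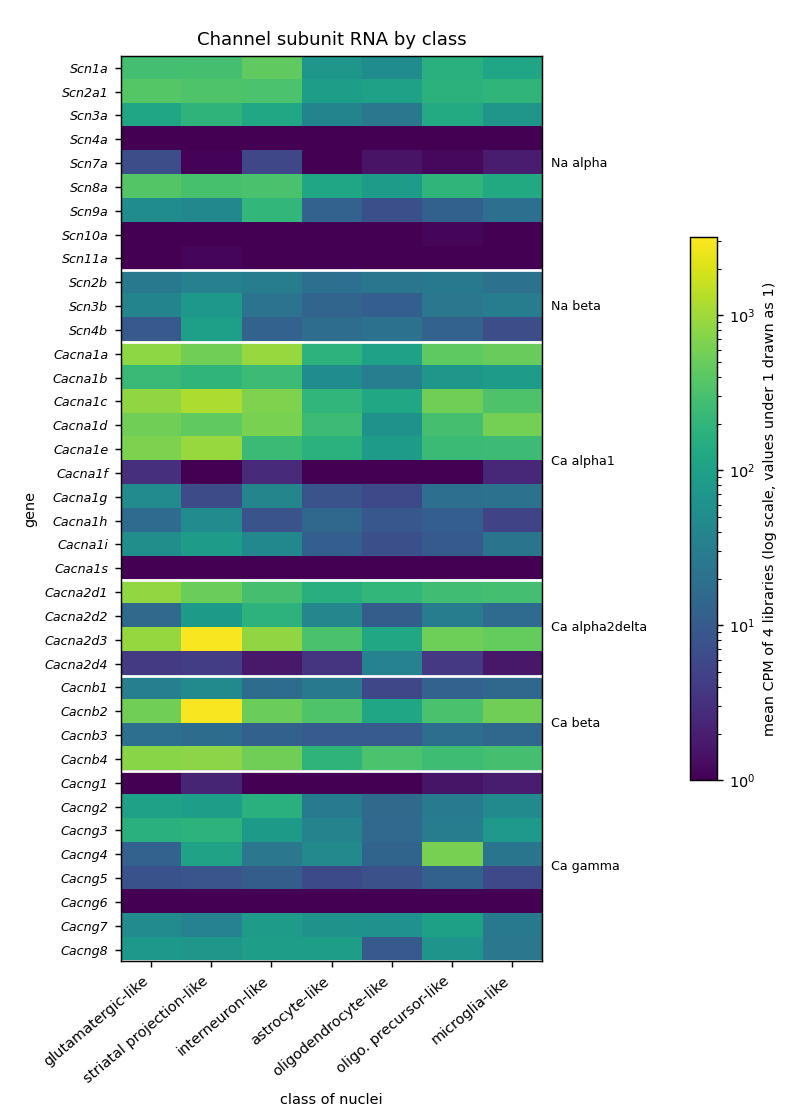
Mean CPM of the 4 libraries (colour, log scale) for 38 members (rows, by subunit family) in 7 classes of nuclei (columns). Cacnb2 and Cacna2d3 stand out in striatal-projection-neuron-like nuclei and Cacng4 in oligodendrocyte-precursor-like nuclei; 5 members are near 0 in every class.

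Among the sodium alpha subunits, the 3 widespread central channels Scn1a, Scn2a1 and Scn8a were detected in every class. Scn1a, the channel of fast-spiking interneurons and of their axons, was highest in interneuron-like nuclei, at 492, 409, 440.5 and 461 CPM, against 346, 283, 276 and 257 CPM in glutamatergic-neuron-like and 296, 281, 293 and 318 CPM in striatal-projection-neuron-like nuclei. Its interneuron-like interval lay above the next class in each library. Scn2a1, abundant in the axons of projection neurons, was at 387, 375, 392 and 392 CPM in glutamatergic-neuron-like nuclei and at 341, 296, 377 and 379 CPM in striatal-projection-neuron-like nuclei. Scn8a, the main channel of nodes and axon initial segments, was at 365, 389, 374 and 347 CPM in glutamatergic-neuron-like, 283, 314, 319 and 289.8 CPM in striatal-projection-neuron-like and 318, 327, 297 and 325 CPM in interneuron-like nuclei, levels close to one another. Scn3a, best known from the developing brain, was highest in striatal-projection-neuron-like nuclei at 198, 169.9, 197 and 206 CPM and stood at 138, 123, 142 and 151 CPM in oligodendrocyte-precursor-like nuclei. Scn7a, an atypical sodium-sensing channel, stayed at means of 6.99 CPM or less in every class.

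Scn9a, a channel best known for pain sensing in peripheral neurons (chr2:66480080-66634962 on GRCm38, minus strand, 155 kb), was highest in 1 of the 7 classes. In interneuron-like nuclei it reached 243, 233, 179.9 and 194 CPM (285, 238, 225 and 191 UMIs), against 57.7, 64, 36.2 and 42.9 CPM in glutamatergic-neuron-like and 43.8, 58.7, 34.6 and 33.4 CPM in striatal-projection-neuron-like nuclei. The unnamed nuclei were in between, at 164, 180.1, 145 and 157 CPM (424, 388, 442 and 301 UMIs). Lhx6-interneuron-like nuclei, the group to which parvalbumin and somatostatin cells belong, stood at 298, 317, 221 and 213 CPM, and Adarb2-interneuron-like nuclei at 67.8, 69.3, 52.8 and 80.3 CPM. Among glutamatergic-neuron-like nuclei the subcortical group stood at 239, 389, 220.4 and 183 CPM, the middle-layer group at 71, 62.7, 36.7 and 41.5 CPM, the upper-layer group at 41.6, 18.7, 14 and 14.1 CPM and the deep-layer group at 11.7, 9.16, 9.17 and 20.1 CPM. The subcortical and Lhx6 groups stood above the other groups named here in every library.

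The sodium beta subunits, single-pass proteins that tune gating and bind cell adhesion molecules, divided by class. Scn4b, the subunit of the resurgent current, was highest in striatal-projection-neuron-like nuclei at 98.4, 70.3, 117 and 95.3 CPM and at 12, 9.13, 10.1 and 7.26 CPM in glutamatergic-neuron-like nuclei. Scn3b was also highest there, at 82.1, 88.1, 71.9 and 57.6 CPM against 35.5, 40.5, 35.5 and 41.2 CPM. Both intervals lay above those of the next class in all 4 libraries. Scn2b stood at 33.6 CPM in striatal-projection-neuron-like nuclei and 30.6 CPM in interneuron-like nuclei.

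The calcium alpha1 subunits form the high-voltage P/Q (Cacna1a), N (Cacna1b), L (Cacna1c, Cacna1d) and R (Cacna1e) types and the low-voltage T types (Cacna1g, Cacna1h, Cacna1i). Cacna1a, which drives transmitter release at many synapses, was at 949, 775, 903 and 1020.0 CPM in interneuron-like nuclei, 868, 719, 845 and 857 CPM in glutamatergic-neuron-like nuclei and 542, 478, 602 and 599 CPM in striatal-projection-neuron-like nuclei. Cacna1c, the main L-type channel of dendrites, was highest in striatal-projection-neuron-like nuclei at 1037, 1069, 1198 and 1382 CPM and at 671, 851, 833 and 1005 CPM in glutamatergic-neuron-like nuclei. Cacna1e was likewise highest in striatal-projection-neuron-like nuclei, at 838, 890.0, 929.6 and 1057 CPM, and lower in interneuron-like nuclei at 216, 218, 257 and 275 CPM. Both had intervals above those of the next class in all 4 libraries. Cacna1d, the L-type channel that opens at lower voltage, was at 599, 558, 608 and 733 CPM in interneuron-like and 478, 567, 710.3 and 619 CPM in microglia-like nuclei. The estimated free level of Cacna1d in microglia-like nuclei was 129, 82.4, 90.3 and 112 CPM, below the measured level in every library. In interneuron-like nuclei Cacna1c was at 622, 744, 640.4 and 712 CPM.

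Of the T-type channels, which open near the resting potential, Cacna1g was at 46.5, 49.8, 51.3 and 45.9 CPM in glutamatergic-neuron-like and 35.8, 51, 39.2 and 29.5 CPM in interneuron-like nuclei, and reached 165, 148, 144 and 167 CPM in the subcortical group, where thalamic relay neurons are known for T-type bursts. Cacna1i and Cacna1h were instead highest in striatal-projection-neuron-like nuclei, at 88.2, 75.1, 103 and 76.5 CPM and 47.9, 55.8, 48.4 and 43.5 CPM, with intervals above those of the next class in all 4 libraries. In striatal-projection-neuron-like nuclei Cacna1g had 13, 27, 20 and 7 UMIs. Cacna1f, the retinal L-type channel, stayed at means of 2.99 CPM in glutamatergic-neuron-like nuclei and below that in the others.

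The alpha2delta subunits bring the channel to the surface, and Cacna2d1 and Cacna2d2 bind the gabapentinoid drugs. Cacna2d3 (chr14:28904943-29721864 on GRCm38, 817 kb) was at 3122, 2478, 3286 and 3118 CPM in striatal-projection-neuron-like nuclei, above the 945, 805, 924 and 945 CPM of glutamatergic-neuron-like nuclei and the 896, 704, 920.2 and 809.8 CPM of interneuron-like nuclei. Cacna2d1 was highest in glutamatergic-neuron-like nuclei at 902, 863, 910.1 and 799 CPM, and within interneurons reached a mean of 946 CPM in the Adarb2 group and 86.4 CPM in the Lhx6 group. In interneuron-like nuclei 1 nucleus held 20.7%, 35.7%, 9.49% and 16.5% of its UMIs, and the Adarb2 group had 34, 23, 50 and 20 nuclei. Cacna2d2 took the opposite pattern there, with means of 232 CPM in the Lhx6 group and 24.5 CPM in the Adarb2 group, and 80.8 CPM in striatal-projection-neuron-like nuclei. Cacna2d4, known from the retina, was the member highest in oligodendrocyte-like nuclei, at 43.4, 21.9, 41.7 and 36.7 CPM (34, 13, 41 and 26 UMIs), while the other classes had means of 1.7 to 4.33 CPM. In oligodendrocyte-like nuclei Cacna2d1 was at 202, 192, 219.7 and 221 CPM.

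The calcium beta subunits bind the pore inside the cell and shape its gating. Cacnb2 (chr2:14603088-14987908, 385 kb) was at 2721, 2970.0, 3227 and 2761 CPM in striatal-projection-neuron-like nuclei, against 453, 656, 559.6 and 579.5 CPM in glutamatergic-neuron-like and 540.2, 547, 540.4 and 446 CPM in interneuron-like nuclei. It had the highest mean level per kb of gene span in striatal-projection-neuron-like nuclei, 7.59 CPM per kb, ahead of Scn4b at 6.05 and Cacna2d3 at 3.67 CPM per kb. Cacnb4, whose loss causes ataxia and seizures in mice, was spread over the neuron classes, at 897, 659, 799 and 726, 839, 727, 843 and 778 and 587, 527, 522 and 582 CPM in glutamatergic-neuron-like, striatal-projection-neuron-like and interneuron-like nuclei. In oligodendrocyte-like nuclei it was at 308, 288, 339.7 and 369 CPM. Cacnb1 and Cacnb3 had means of 5.49 to 47.1 CPM over the 7 classes.

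Cacna2d3, Cacnb2 and Scn9a are 3 of the 15 members set apart in 1 class in all 4 libraries, and their promoters, chosen after their levels were seen, are shown so that these windows can be compared (RefSeq, GRCm38.p6, from 250 bases before to 50 after the start, with the GC box GGGCGG or its complement CCGCCC in capitals). The Cacna2d3 window (chr14:29721815-29722114, minus strand) is 81.3% G or C and holds 6 GC boxes. The first Cacnb2 start (chr2:14604056-14604355, plus strand) has 1 GC box and 71.7% G or C, whereas the second (chr2:14823842-14824141), 219.8 kb downstream, has none and 44.0%. The Scn9a window (chr2:66634913-66635212, minus strand) has none and 57.3%.

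Cacna2d3: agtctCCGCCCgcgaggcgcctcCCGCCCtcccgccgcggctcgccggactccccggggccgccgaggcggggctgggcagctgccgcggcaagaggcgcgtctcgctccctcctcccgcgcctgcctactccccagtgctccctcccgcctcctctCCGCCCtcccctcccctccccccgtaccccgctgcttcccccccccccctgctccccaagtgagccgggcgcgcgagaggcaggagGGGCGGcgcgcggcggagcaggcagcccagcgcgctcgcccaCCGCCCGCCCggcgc
Cacnb2 first start: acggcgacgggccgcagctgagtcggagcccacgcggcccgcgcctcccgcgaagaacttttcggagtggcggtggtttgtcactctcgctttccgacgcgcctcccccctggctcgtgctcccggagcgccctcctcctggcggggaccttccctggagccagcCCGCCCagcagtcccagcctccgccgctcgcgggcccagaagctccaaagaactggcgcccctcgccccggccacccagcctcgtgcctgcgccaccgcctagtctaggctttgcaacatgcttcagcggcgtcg
Cacnb2 second start: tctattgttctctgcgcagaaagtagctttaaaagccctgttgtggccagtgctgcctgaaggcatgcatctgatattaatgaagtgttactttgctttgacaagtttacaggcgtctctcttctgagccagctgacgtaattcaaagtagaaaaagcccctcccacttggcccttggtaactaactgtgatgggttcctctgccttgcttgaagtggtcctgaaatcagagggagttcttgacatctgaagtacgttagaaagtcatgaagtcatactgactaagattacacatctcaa
Scn9a: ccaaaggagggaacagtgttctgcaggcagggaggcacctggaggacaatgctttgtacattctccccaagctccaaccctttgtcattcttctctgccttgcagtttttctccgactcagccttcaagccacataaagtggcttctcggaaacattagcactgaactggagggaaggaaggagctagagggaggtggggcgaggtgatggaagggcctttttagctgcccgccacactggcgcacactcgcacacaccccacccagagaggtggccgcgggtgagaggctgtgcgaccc

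Across the table, 41 promoters matched 30 of the 40 members. The GC box was in 16 of these 41 promoters (39.0%), against 35.7% of the 32851 promoters of this length. The letters TATAAA were in 2 of the 41 (4.88%) and in 13.6% of all, CAGCACC in none of the 41 and in 7.14% of all, and TGACGTCA in none and in 1.79%. Median G and C content was 59.3% in the member promoters and 52.7% in all. Both strands were searched, and a match of letters is a description of the window.

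Of the gamma family, Cacng2, the TARP stargazin, was highest in interneuron-like nuclei (169, 169.5, 167 and 169 CPM), with intervals above the next class in all libraries. Cacng3 was highest in the upper-layer group, with a mean of 371 CPM. Cacng7 and Cacng8, further TARPs, had means of 60.3 and 91.3 CPM in astrocyte-like nuclei. Cacng4 (chr11:107732357-107794557, 62.2 kb), an early-acting TARP, was the member whose interval lay above every other class in oligodendrocyte-precursor-like nuclei in all 4 libraries, at 917, 559.5, 431 and 571 CPM (225, 127, 191 and 121 UMIs), with the next class, striatal-projection-neuron-like, at 105, 90.0, 130.5 and 93.4 CPM. The estimated free level of Cacng4 in oligodendrocyte-precursor-like nuclei was 11.6, 11.8, 12.6 and 11.5 CPM. Its level was highest in the sham library, whose interval, 801 to 1045 CPM, lay above the 3 others, and 1 nucleus held 13.3% of its sham UMIs, without which it was at 814.0 CPM. Cacng1 and Cacng5 had means of at most 2.29 and 12.1 CPM in any class.

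**Figure D2:**
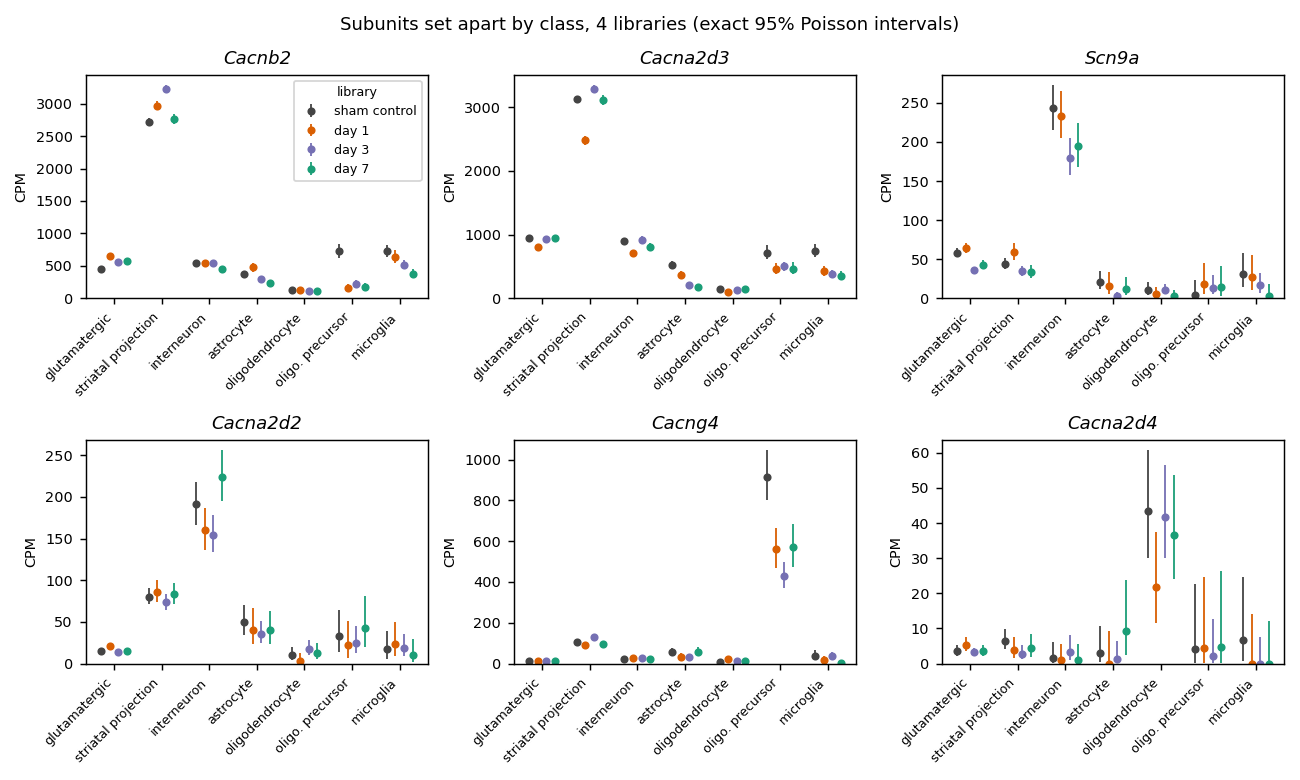
CPM in each of the 4 libraries with exact 95% Poisson intervals for 6 members across 7 classes of nuclei. Cacnb2 and Cacna2d3 are high in striatal-projection-neuron-like nuclei, Scn9a and Cacna2d2 in interneuron-like, Cacng4 in oligodendrocyte-precursor-like and Cacna2d4 in oligodendrocyte-like nuclei, in all 4 libraries.

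The members were next compared with sham control in the 5 classes with the most nuclei. A ratio was called higher or lower where it was at least 1.5-fold with an interval that excludes 1 and the gene had at least 20 UMIs in both libraries together; the share of all genes called by the same rule is the background for each count. In the neuron classes, 9 of 287 comparisons of a member were called higher and 9 lower (3.14% each), where 3.55% and 3.36% of all gene comparisons were. In astrocyte-like and oligodendrocyte-like nuclei 3 of 134 were higher (2.24%; 4.21% of all genes) and 20 lower (14.9%; 5.39%). Median log2 ratios of the members were between -0.14 and 0.06 in the neuron classes. On nuclei thinned to 1000 UMIs the interneuron-like median at day 7 turned from -0.140 to 0.018, and the glutamatergic-neuron-like median at day 1 went from -0.004 to 0.204.

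In glutamatergic-neuron-like nuclei, where 34 members were compared on each day, 1 was called higher and none lower at day 1, none higher and 1 lower at day 3, and 3 higher and 1 lower at day 7. The background for higher calls was 5.46%, 2.13% and 4.54% of genes at day 1, day 3 and day 7, and for lower calls 2.87%, 3.12% and 4.25%. Cacna1h, a T-type channel, was at 10.9, 18.6, 13.2 and 24.9 CPM and called at both day 1, with a ratio of 1.7 (95% interval 1.25 to 2.31), and day 7, with 2.27 (95% interval 1.71 to 3.03). Dentate-granule-like nuclei made up 0.845% of the class in sham control (5 nuclei) and 5.57%, 4.6% and 8.53% at the later days, and had a Cacna1h level of 16.2, 56.4, 75 and 92.4 CPM, from 1, 19, 26 and 49 UMIs. In the cortical clusters alone, a comparison added after seeing the data, the day 1 call was lost, at a log2 ratio of 0.58, while the day 7 call stayed. Scn9a was called lower at day 3, at 57.7, 64, 36.2 and 42.9 CPM with a ratio of 0.627 (95% interval 0.542 to 0.725). Over finer neuron classes, interneuron groups included, it was below sham control in the 7 with enough UMIs, with intervals below 1 in 4. At day 1 it was above sham control in 4 of 8 finer classes, with 1 interval above 1 and 1 below, and at day 7 in 2 of 7, with none above and 3 below. By a count added after the data were seen, of the 4708 genes compared in those 7 classes 4.01% were below sham control in all 7 at day 3 and 2.04% had intervals below 1 in at least 4, and of those of 100 kb or more, as Scn9a is, 2.21% and 3.22%. Also called at day 7 were Cacng5 at 2.03 (95% interval 1.36 to 3.07) and Scn4b at 0.606 (95% interval 0.413 to 0.878). Their levels were low, at 5.77, 6.31, 6.7 and 11.7 CPM for Cacng5 and 12, 9.13, 10.1 and 7.26 CPM for Scn4b. In the cortical clusters alone the Cacng5 call was lost as well, at a log2 ratio of 0.71.

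Cacna1c was not called in any neuron class but was higher than in sham control in most comparisons. Its ratio in glutamatergic-neuron-like nuclei was 1.498 (95% interval 1.44 to 1.56) at day 7, just under the 1.5-fold bound, from 671, 851, 833 and 1005 CPM. Among the 8 finer neuron classes, the ratio was above 1 in 8 at day 1, in 7 at day 3 and in 8 at day 7, with intervals above 1 in 8, 5 and 7. These classes were drawn from the same 4 libraries and are not replicates. By the same kind of count, of the 3170 to 3296 genes compared in all 8, 2.01%, 9.15% and 2.0% had a ratio above 1 in at least as many classes at day 1, day 3 and day 7, and 1.68%, 15.8% and 2.89% of those of 100 kb or more, to which Cacna1c belongs. At least as many intervals above 1 were found for 0.0628%, 2.56% and 0.364% of the genes, and for 0.0733%, 5.23% and 0.518% of those of 100 kb or more. The genes compared here and for Scn9a were not matched to these members in UMIs. Intervals narrow as UMIs rise, so the interval shares depend in part on depth and are a description only. Of all genes of 100 kb or more in glutamatergic-neuron-like nuclei, 5.77%, 3.09% and 7.79% were called higher on these days. In the subcortical group, the class with the highest level, it was 2041, 2253, 2353 and 2611 CPM, and in the deep-layer group 368, 533, 464 and 543 CPM.

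**Figure D3:**
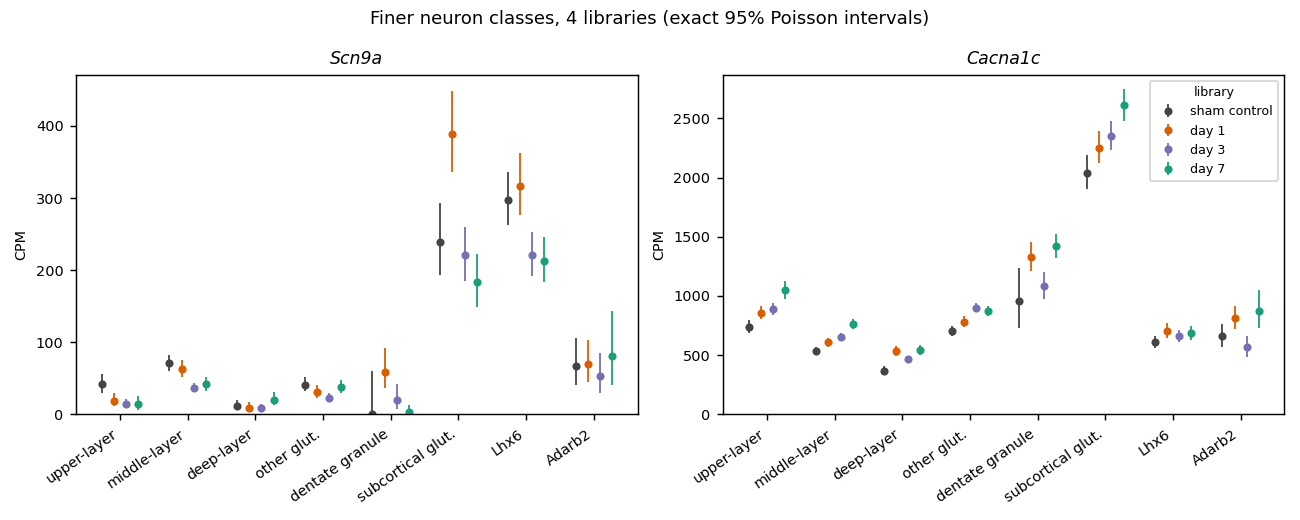
CPM with exact 95% Poisson intervals of Scn9a and Cacna1c in 8 finer neuron classes and 4 libraries. Scn9a is high in subcortical and Lhx6 groups and lower at day 3 than in sham control; Cacna1c is lowest in the sham library in most groups.

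In striatal-projection-neuron-like nuclei 32 members were compared on each day. At day 1, 3 were higher and 1 lower (background 5.54% and 1.93%), at day 3 none higher and 2 lower (2.41% and 3.05%), and at day 7 1 higher and 1 lower (2.78% and 4.01%). Scn2b was called lower on 2 days, with 45, 24.6, 37.3 and 27.6 CPM and ratios of 0.546 (95% interval 0.39 to 0.754) at day 1 and 0.613 (95% interval 0.444 to 0.836) at day 7. Its level was highest in the sham library and overlapped it in interval only at day 3. Cacng5 at day 1 was at 3.3 (95% interval 1.72 to 6.59) and Cacna1g at 3.42 (95% interval 1.71 to 7.22), on 15, 30, 24 and 16 UMIs and 13, 27, 20 and 7 UMIs, so both rest on few molecules. At day 3 the lower members were Cacna2d4 at 0.421 (95% interval 0.171 to 0.952) and Cacng7 at 0.547 (95% interval 0.409 to 0.726), and at day 7 Cacnb3 was higher at 1.58 (95% interval 1.02 to 2.45). Levels were 6.43, 3.85, 2.71 and 4.36 CPM for Cacna2d4, 42.4, 45.7, 23.2 and 33.4 CPM for Cacng7 and 13.4, 20.7, 13.5 and 21.3 CPM for Cacnb3. Cacna2d3 and Cacnb2, both set apart in this class, were not called on any day.

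In interneuron-like nuclei 29 or 30 members were compared. No member was called higher and 1 lower at day 1 (background 3.31% and 3.02%), 1 higher and 2 lower at day 3 (2.47% and 3.15%) and none in either direction at day 7 (2.74% and 5.07%). The calls were Cacnb3 at 0.345 (95% interval 0.113 to 0.891) at day 1, and at day 3 Scn3b at 1.83 (95% interval 1.06 to 3.26), Scn2b at 0.558 (95% interval 0.326 to 0.938) and Scn4b at 0.413 (95% interval 0.183 to 0.87). These 4 members were each called on 1 day. Levels were 17, 5.88, 13.6 and 13.2 CPM for Cacnb3, 17.9, 18.6, 32.8 and 16.3 CPM for Scn3b, 35.8, 36.2, 20.0 and 30.6 CPM for Scn2b and 21.3, 10.8, 8.79 and 10.2 CPM for Scn4b.

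**Figure D4:**
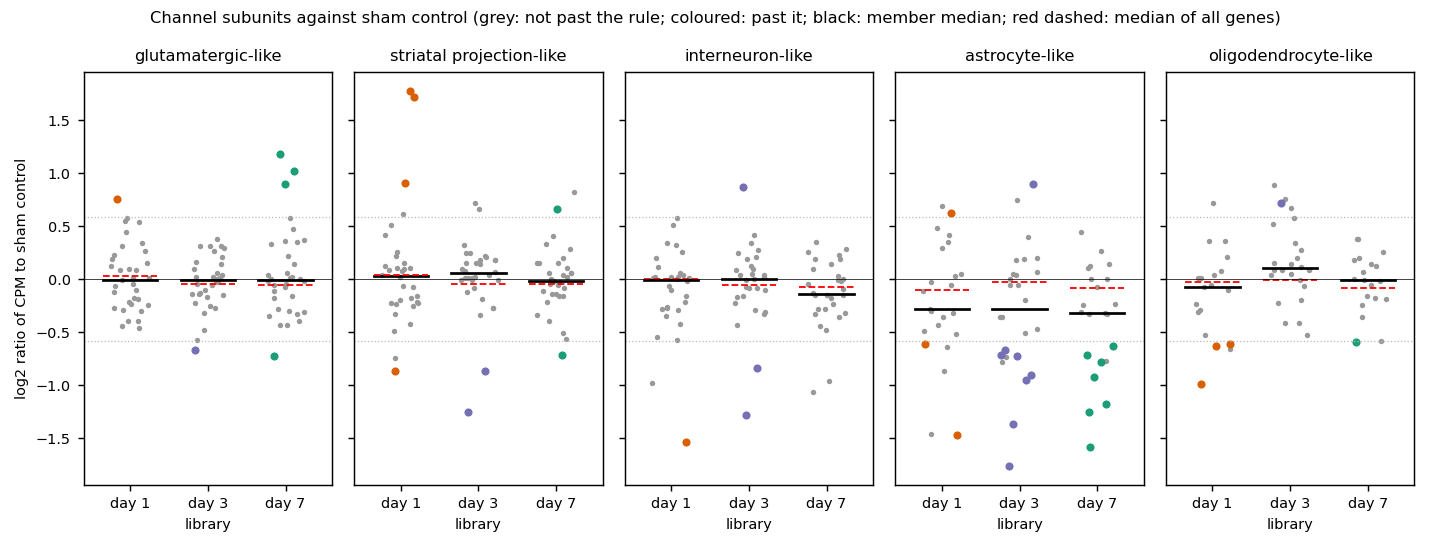
Log2 ratio of CPM to sham control for every member compared (points; coloured where past the 1.5-fold rule) in 5 classes on 3 days, with the member median (black) and the median of all genes (red, dashed). Coloured points lie on both sides in the neuron classes and mostly below 0 in astrocyte-like nuclei, where the member medians are -0.28, -0.28 and -0.32; the day 1 median turned to 0.004 with every barcode over 1000 UMIs.

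In astrocyte-like nuclei more members were called lower than higher on each day, and the lower calls at day 3 and day 7 exceeded the background. At day 1, 1 of 23 members was higher and 2 lower (background 3.99% and 6.19%), at day 3, 1 of 26 higher and 7 lower (4.42% and 5.74%), and at day 7 none of 23 higher and 7 lower (4.44% and 6.81%). The member median was -0.28, -0.28 and -0.32 in log2, against -0.10, -0.02 and -0.08 for all genes. The day 1 median turned to 0.004 with every barcode over 1000 UMIs and was -0.543 with free RNA subtracted. The day 3 median was -0.084 on thinned nuclei, -0.596 with free RNA subtracted and -0.529 without the top nucleus of each gene, and the day 7 median was -0.535 without it. Of genes of 100 kb or more, 7.15%, 10.0% and 11.6% were lower. Mitochondrial transcripts took 1.10%, 0.726%, 1.83% and 2.54% of astrocyte-like UMIs in sham control, day 1, day 3 and day 7, and their part in these calls was not tested.

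Cacna2d3, an alpha2delta subunit, gave the lowest of the called ratios at day 7, at 525, 366, 203 and 175 CPM (357, 144, 175 and 75 UMIs), and a ratio of 0.387 (95% interval 0.321 to 0.465) at day 3 and 0.334 (95% interval 0.257 to 0.429) at day 7. The sham interval did not overlap the later ones. Cacna1c was at 244, 300.3, 149 and 107 CPM, with a ratio of 0.609 (95% interval 0.48 to 0.772) at day 3 and 0.44 (95% interval 0.31 to 0.613) at day 7. Cacnb4 stood at 260.1, 209, 135 and 152 CPM and Scn3a at 70.5, 25.4, 20.9 and 37.3 CPM, both called lower on days 3 and 7, and Scn3a also at day 1, at 0.361 (95% interval 0.163 to 0.722). The Cacna1c log2 ratio at day 3 turned to 0.52 on nuclei thinned to 1000 UMIs. Cacna1e was higher at day 1, at 1.55 (95% interval 1.19 to 2.02), then lower at day 3 and day 7, with 181, 279.9, 114 and 117 CPM, and its day 7 log2 ratio turned to 0.12 with every barcode over 1000 UMIs. A single nucleus held 20.9% of its day 1 UMIs. Without the top nucleus of each library Cacna1e was at 166.5, 232.2, 101.9 and 95.1 CPM. Over the 4 libraries, each of these 5 members had a higher mean in every neuron class than in astrocyte-like nuclei. The 12 neuronal markers summed to 4580, 5545, 3356 and 2950 CPM in astrocyte-like nuclei, all 12 detected.

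The estimated free level of Cacna2d3 in astrocyte-like nuclei went from 247 to 160.4 CPM between sham control and day 7, close to its measured 203 CPM at day 3 and 175 CPM at day 7. Free RNA was estimated at 43.5%, 56.1%, 31.6% and 27.1% of astrocyte-like UMIs. The part of free RNA in these calls was not tested. With the free estimate subtracted from each class sum, 4, 6 and 5 members were lower, and Cacna2d3 was lower by a log2 of 4.06 at day 3 and 4.56 at day 7, values that rest on small remainders. The interval of the measured level lay above the free estimate in all 4 libraries for Cacna1d, Cacnb2, Cacng4, Cacng7 and Cacng8, 5 of 28 members with at least 20 UMIs. The remaining lower calls were Cacna2d1 at day 1, at 0.657 (95% interval 0.468 to 0.911), Scn1a at day 3, at 0.61 (95% interval 0.402 to 0.92), Cacnb2 at day 7, at 0.613 (95% interval 0.48 to 0.777), and Cacng3 on both day 3 and day 7, on 34, 19, 23 and 9 UMIs. Levels were 201, 132, 157 and 161 CPM for Cacna2d1, 83.8, 86.5, 51.1 and 67.7 CPM for Scn1a and 373, 476, 290.2 and 229 CPM for Cacnb2. The direction of 2 of these calls turned, with log2 ratios of 0.05 for Scn1a with the mean of nuclei, and of 0.12 on thinned nuclei and 0.09 with the mean of nuclei for Cacnb2. Cacna1d, which was not called, was at 234, 239, 268 and 282 CPM.

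**Figure D5:**
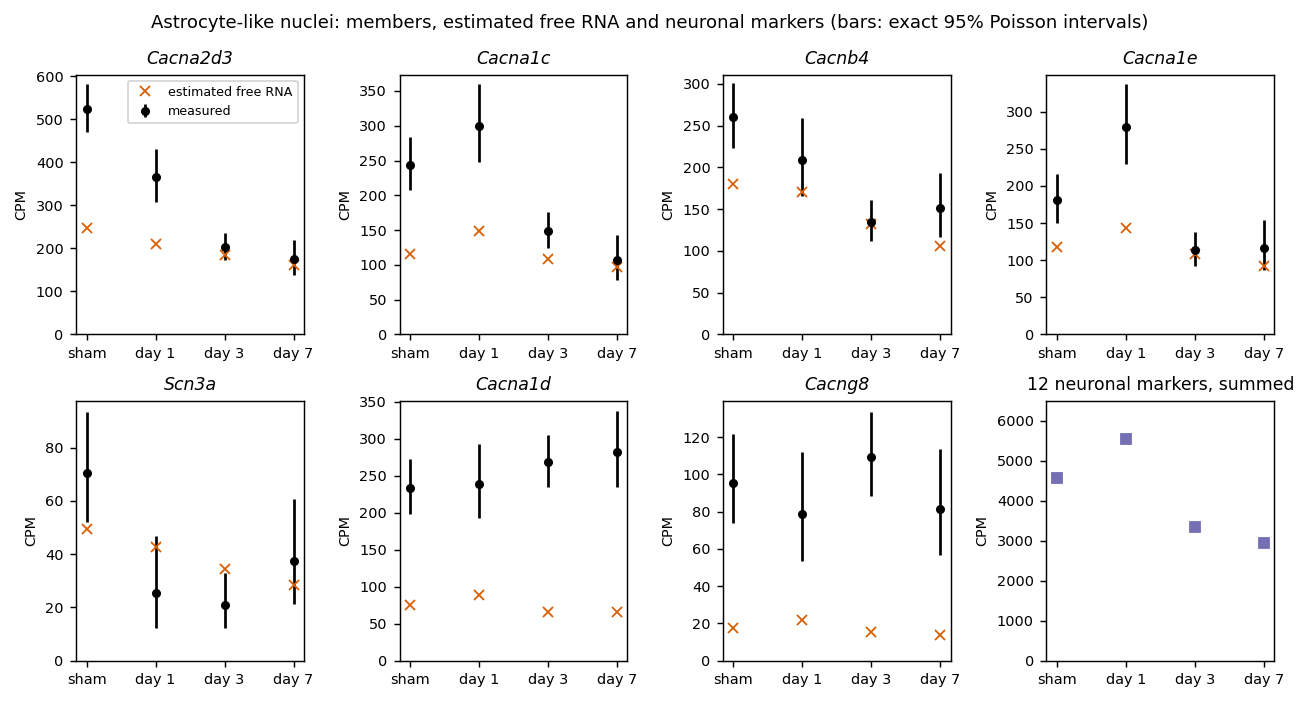
Measured CPM with exact 95% Poisson intervals (black) and estimated free-RNA CPM (crosses) of 7 members in astrocyte-like nuclei by library, and the summed CPM of 12 neuronal markers (squares). Cacna1d and Cacng8 lie above the crosses in all 4 libraries, while Cacna2d3, Cacnb4 and Scn3a lie near them at day 3.

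In oligodendrocyte-like nuclei, 3 of 19 members were lower and none higher at day 1 (background 5.37% lower and 4.91% higher), 1 of 24 was higher and none lower at day 3 (4.17% and 3.06%), and 1 of 19 was lower and none higher at day 7 (5.35% and 3.3%). Cacna1c was at 149, 97.6, 154 and 100.1 CPM with a day 1 ratio of 0.653 (95% interval 0.468 to 0.902), and Cacna2d3 at 0.647 (95% interval 0.46 to 0.901). Cacna2d4, the member highest in this class, was lower at day 1 at 0.504 (95% interval 0.244 to 0.979). Scn8a was higher at day 3, at 1.65 (95% interval 1.19 to 2.32) and 70.2, 70.7, 116 and 91.6 CPM, and Cacna2d3 stood at 143, 92.5, 123 and 142 CPM. Cacnb2 was at 123, 126, 107 and 107 CPM and was not called. However, 1 nucleus held 52.1% of its sham UMIs and 1 held 52.0% of its day 1 UMIs. Without the top nucleus of each library Cacnb2 was at 59.7, 63.1, 98.4 and 84.3 CPM. Cacna1e was lower at day 7 at 0.665 (95% interval 0.453 to 0.968), but 1 nucleus held 48.7% of its sham UMIs and without the top nucleus of each library the log2 ratio was 0.18. It was 0.70 with the libraries merged and 0.27 with the mean of nuclei. The 12 neuronal markers, all detected, summed to 2122, 1886, 2417 and 1955 CPM in oligodendrocyte-like nuclei, and their part in these calls was not tested. The interval of the measured level lay above the free estimate in all 4 libraries for 7 of 29 members, among them Cacna1c, Cacna2d4 and Scn8a but not Cacna2d3 or Cacna1e.

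In oligodendrocyte-precursor-like and microglia-like nuclei only levels were examined. Cacnb2 in the former was at 721, 163, 226 and 170.0 CPM, where 1 nucleus held 77.4% of its sham UMIs and the level without it was 176.5 CPM. Cacna1c and Cacna2d3 were at 456, 582, 501 and 652 CPM and 717, 463, 499 and 463 CPM, and Cacna1a at 456, 441, 465 and 387 CPM. Each of these 3 members had a higher mean in every neuron class. In microglia-like nuclei, beside Cacna1d, Cacnb2 was at 722, 636, 518 and 379 CPM, Cacna1a at 505, 613, 381 and 441 CPM, Cacna2d3 at 739, 425, 379 and 352 CPM and Cacna1c at 326, 406, 249.7 and 359 CPM. The neuronal markers summed to 7782, 5162, 4591 and 4986 CPM there. The intervals of Cacna1d, Cacnb2, Cacna1a, Cacna2d3 and Cacna1c, and of Cacna1e, lay above the free estimate in all 4 libraries, 6 of 26 members. The free estimate was used without an error of its own. A single nucleus held 29.7% to 35.8% of Cacna2d3 UMIs by library, and 49.3% of Cacna1e UMIs at day 7. For Cacna1c it held 39.3% at day 3 and 48.6% at day 7, and without it Cacna1c was at 163.5 and 213.2 CPM. For Cacna1d the share was 9.8% to 21.6%.

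A list of 33 genes for channel partners, including ankyrins, Fgf homologous factors, release-site proteins, calmodulins and Nalcn with Unc79 and Unc80, was taken with the members. Over the 3 neuron classes and 3 days, 30 or 31 partners were compared each time, and between none and 1 were called higher and between none and 3 lower. In glutamatergic-neuron-like nuclei the calls were 1 of 30 higher and 1 lower at day 7 (background 4.54% and 4.25%). In striatal-projection-neuron-like nuclei they were 1 of 31 higher at day 1 (5.54%) and 3 of 31 lower at day 7 (4.01%), and in interneuron-like nuclei 1 of 31 lower at day 1 (3.02%) and 1 of 30 higher at day 7 (2.74%). In astrocyte-like nuclei 2 of 27, 1 of 28 and 1 of 26 were higher, beside a background of 3.99%, 4.42% and 4.44%, and 1 of 27, 2 of 28 and 6 of 26 lower, beside 6.19%, 5.74% and 6.81%. In oligodendrocyte-like nuclei none, 2 and 1 of 27 were higher (background 4.91%, 4.17% and 3.3%) and 2, none and none of 27 lower (background 5.37%, 3.06% and 5.35%). The gene called in one direction on more than 1 day in astrocyte-like nuclei was Syt1, the vesicle calcium sensor, which is itself among the 12 neuronal markers, at 0.648 (95% interval 0.575 to 0.731) at day 3 and 0.63 (95% interval 0.54 to 0.732) at day 7. In oligodendrocyte-like nuclei it was Camk2a, an alpha subunit of calcium-calmodulin kinase and another marker on that list, at 1.77 (95% interval 1.29 to 2.45) at day 3 and 1.55 (95% interval 1.1 to 2.21) at day 7.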

How the data were processed

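Per the labels and the study's methods, the authors made droplet libraries of nuclei, aligned reads with STAR 2.7.3a (STARsolo) to GRCm38, counted reads over whole gene bodies and collapsed UMIs within 1 mismatch. The deposited values are raw UMI counts per gene and barcode in 4 libraries, 1 per group, with no normalisation, no free RNA removal and no barcode filter. The channel genes and the gene lists were chosen with earlier results of these data known.

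Nuclei were called with a re-implementation of emptyDrops (barcodes of at most 1000 UMIs as the ambient profile, 10000 draws, false discovery rate under 0.001), and putative doublets were removed at 0.8% per 1000 nuclei with Scrublet in scanpy 1.11.5. Clustering used Seurat 5.3.0 and sctransform 0.4.2 in R 4.3.3 with 30 principal components at resolution 0.8 and 2992 features, none of them a channel gene. Of 33 clusters, 4 stayed unnamed. Names came from 199 markers of 25 classes, and the naming thresholds were set after the clusters were seen.

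UMIs were summed per class and library and given as CPM with an exact Poisson interval. Each ratio of a later library to sham control has an interval from the exact binomial test conditional on the sum, with sums under 3 UMIs set to 3 in log2 ratios. Free RNA of a class was estimated from 14 glial markers in neuron classes and 12 neuronal markers in glia classes. No test across samples was possible with 1 library per group, so no p-value was computed. The ratio, interval and nucleus-calling steps were tested on simulated data. Gene positions are from GENCODE vM21, which matched 46488 of the 46983 gene identifiers, whereas counting used vM8, and promoters are from RefSeq. Values are given for the 5 channel genes of highest mean CPM in each class, for those called in 1 direction on 2 of 3 days in a class, and for those called on 1 day, up to 5 per class and day. The values of 2 channel genes are not reported here, although the counts over all members hold them. Partner genes are named where called in 1 direction on 2 of 3 days. Results were recomputed under 12 other choices of nuclei, clustering, depth, weighting, scaling (TMM factors from edgeR 4.0.16) and filters.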

Additional observations from a re-analysis of the deposited data

How the results depend on the processing

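No paired analysis was possible because each group held 1 library, and for the same reason no replicate could be left out. The number of channel genes with the same highest class in all 4 libraries was 21, and between 17 (nuclei thinned to 1000 UMIs) and 23 (resolution 1.2) under the alternatives. Of the 41 calls, those kept were 36 with TMM scaling, 38 without the nucleus that holds most UMIs of a gene, 30 with the libraries merged, 27 with every barcode over 1000 UMIs, 26 with the mean of nuclei and 13 at 2-fold; 34 of 40 stayed at resolution 1.2, 29 of 40 with doublets kept, 30 of 32 with free RNA subtracted and 4 of 19 on thinned nuclei, where the smaller totals leave out calls that had too few UMIs to be compared. A minimum of 50 UMIs, which changes no ratio, left 33 of the 41 calls. Cacna2d3 in astrocyte-like nuclei was called lower at day 3 and day 7 in each alternative computed for it, none of which lacked the UMIs to compare it. In the cortical clusters alone, an alternative chosen after the data were seen, 4 of 6 glutamatergic calls stayed.

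The member median in glutamatergic-neuron-like nuclei at day 1 was -0.004 and became 0.204 on thinned nuclei and 0.093 with no minimum of UMIs. The interneuron-like median at day 7, -0.140, was 0.018 on thinned nuclei. In astrocyte-like nuclei the day 1 median of -0.276 was 0.004 with every barcode over 1000 UMIs and -0.543 with free RNA subtracted. The day 3 median of -0.282 was -0.084 on thinned nuclei, -0.596 with free RNA subtracted and -0.529 without the top nucleus, and the day 7 median of -0.322 was -0.535 without the top nucleus. In oligodendrocyte-like nuclei the day 1 median of -0.073 was -0.395 with every barcode over 1000 UMIs, -0.408 at resolution 1.2 and -0.587 with doublets kept. The day 7 median of -0.006 was 0.255 with libraries merged, -0.294 at resolution 1.2, -0.526 with doublets kept and 0.241 with the mean of nuclei. The cause of these moves was not tested.

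Log2 ratios that changed sign were, in astrocyte-like nuclei, Cacna1c at day 3 on thinned nuclei (0.52), Cacna1e at day 7 with every barcode over 1000 UMIs (0.12), Cacnb2 at day 7 on thinned nuclei (0.12) and with the mean of nuclei (0.09), and Scn1a at day 3 with the mean of nuclei (0.05). In oligodendrocyte-like nuclei Cacna1e at day 7 was 0.70 with libraries merged, 0.27 with the mean of nuclei and 0.18 without the top nucleus. The cause was not tested.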
